A study of Homo sapiens with 12 samples.

Results

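The BCL2 family genes described here are 10 of the 43735 genes in the count table, chosen by symbol. They comprised the pro-survival members BCL2, BCL2L1 (BCL-XL), MCL1 and BCL2A1 (BFL1), the effectors BAX and BAK1, and the BH3-only members BCL2L11 (BIM), BBC3 (PUMA), PMAIP1 (NOXA) and BID. All 10 were found and all 10 passed the filter on low counts that left 14085 genes for testing. RNA was sequenced from 12 cultures of the human multiple myeloma lines MM1S, labelled sensitive to glucocorticoids, and MM1R, labelled resistant. The 4 groups of 3 cultures were untreated MM1S, MM1S with withaferin A (WA), untreated MM1R and MM1R with WA. WA, a plant steroidal lactone that binds reactive cysteines, was given at 1 µM for 3 h per the labels. MM1S cultures had passage numbers 16, 22 and 23 and MM1R cultures 4, 6 and 7, with the same passages untreated and exposed. The lines came from 1 patient and shared no passage number, so that line and passage number cannot be told apart, and whether untreated cultures received a solvent is not given in the sources used here.

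In the mitochondrial route of apoptosis, BAX and BAK1 form pores in the outer mitochondrial membrane, through which cytochrome c leaves and starts the caspase cascade. Pro-survival proteins hold BAX and BAK1 in check, and BH3-only proteins bind the pro-survival proteins or act on BAX and BAK1 directly. Plasma cells and most myelomas are known to lean on MCL1, a protein with a short life. The present data are RNA levels only, so that protein amounts, protein stability and cleavage of BID were not measured.

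Reads counted on genes numbered 17625110 to 19368343 in a culture (median 18555625). Levels are given as CPM, read counts relative to the library size as scaled by TMM, and differences as log2 fold changes with standard error (SE) from edgeR's quasi-likelihood test, with p-values adjusted over the 14085 genes tested and a limit of 0.05. Of 10 plasma cell markers 9 passed the filter, and the summed CPM of the 10 ranged from 5640 to 6000 in untreated MM1S, from 5170 to 5310 in MM1S with WA, from 6400 to 6830 in untreated MM1R and from 5280 to 5940 in MM1R with WA. Against this sum, CD38 was called lower in MM1R untreated (mean 44.5 CPM against 91.3 in MM1S) and with WA (58.0 against 106). With WA, SLAMF7 was called higher and IRF4 lower in both lines. The 5 mature B-cell markers summed to 14.6 to 45.1 CPM, nearly all of it CIITA, the class II transactivator (240 to 870 reads), which was lower in untreated MM1R than in untreated MM1S (log2 fold change -0.76, adjusted p = 0.032). The B-cell gene MS4A1 (0 to 2 reads) and the T-cell genes CD3D (0 to 1 reads) and CD3G (0 reads) were at or near 0, whereas CD3E had 63 to 211 reads. The summed CPM of 4 fibroblast markers rose with WA, from 0.497 to 1.09 in untreated to 2.3 to 6.55 in exposed MM1S and from 1.52 to 2.34 in untreated to 5.29 to 17.9 in exposed MM1R, of which COL1A1, a collagen gene, made up most. The 5 monocyte markers summed to 0.16 to 0.933 CPM in MM1S and 0.907 to 2.16 CPM in MM1R, and the 4 epithelial markers stayed at or below 1.55 CPM. The only monocyte marker tested, S100A9 (0 to 36 reads), was called higher in MM1R both untreated and with WA. In MM1S it had 3 to 9 reads untreated and 0 to 6 with WA. It thus passed the filter on low counts through MM1R cultures, which favours these calls. The part of these markers in the results was not tested.

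The genes lie at chr18:60790579-60987361 for BCL2, chr20:30252255-30311792 for BCL2L1, chr1:150533371-150552214 for MCL1 and chr15:80253234-80263538 for BCL2A1 (all GRCh37, minus strand). BAX lies at chr19:49458072-49465055 on the plus strand and BAK1 at chr6:33540324-33548070 on the minus strand. BCL2L11 lies at chr2:111876955-111926021 and PMAIP1 at chr18:57567228-57571537 on the plus strand, and BBC3 at chr19:47724079-47736023 and BID at chr22:18216904-18257536 on the minus strand. In the GENCODE annotation of GRCh37, exons of the antisense gene ABALON cover 36.7% of the canonical BCL2L1 transcript, and those of MIR4435-2HG cover 14.3% of that of BCL2L11. GGNBP1 exons cover 4.2% of the BAK1 transcript. The strand setting of the counting is not given in the sources used here, so that reads of these partners cannot be told apart and the levels of BCL2L1, BCL2L11 and BAK1 carry that uncertainty.

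Promoter windows of RefSeq (GRCh38.p14, 250 bases before to 50 after a start site) were found for 9 of the 10 genes, all but MCL1. They comprised 14 windows, since BCL2L1 and BID have several start sites. Both strands were searched for TGACGTCA (the cAMP response element, in 1.85% of all 35116 windows), TGATGNAA (the composite site of ATF4 and C/EBP proteins, 3.62%), GAANNTTC and TTCNNGAA (the inverted pairs of the heat shock element, 6.77% and 7.74%) and TGACNNNGC (the antioxidant response element, 13.35%). The 250 bases before the start are shown, 5′ to 3′ on the gene's strand, for the other 4 genes called with WA in either line, with matches in capitals.
BBC3 promoter, GRCh38.p14, chr19:47232668-47232917, strand -: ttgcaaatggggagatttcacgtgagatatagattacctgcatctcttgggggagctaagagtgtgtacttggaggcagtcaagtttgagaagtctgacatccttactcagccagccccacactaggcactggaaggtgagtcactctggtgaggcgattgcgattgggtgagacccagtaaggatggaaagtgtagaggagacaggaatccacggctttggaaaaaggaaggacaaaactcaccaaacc
PMAIP1 promoter, GRCh38.p14, chr18:59899746-59899995, strand +: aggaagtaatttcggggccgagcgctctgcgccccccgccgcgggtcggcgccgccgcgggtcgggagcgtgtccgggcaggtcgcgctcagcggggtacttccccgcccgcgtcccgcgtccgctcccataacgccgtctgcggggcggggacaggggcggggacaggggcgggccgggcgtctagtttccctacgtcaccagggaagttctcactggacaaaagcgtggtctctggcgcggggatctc
BCL2A1 promoter, GRCh38.p14, chr15:79971197-79971446, strand -: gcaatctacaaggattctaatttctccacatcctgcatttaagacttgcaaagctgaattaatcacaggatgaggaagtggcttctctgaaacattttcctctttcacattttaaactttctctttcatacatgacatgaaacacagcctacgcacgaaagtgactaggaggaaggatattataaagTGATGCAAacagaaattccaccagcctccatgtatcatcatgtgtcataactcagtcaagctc
BID promoter, GRCh38.p14, chr22:17774666-17774915, strand -: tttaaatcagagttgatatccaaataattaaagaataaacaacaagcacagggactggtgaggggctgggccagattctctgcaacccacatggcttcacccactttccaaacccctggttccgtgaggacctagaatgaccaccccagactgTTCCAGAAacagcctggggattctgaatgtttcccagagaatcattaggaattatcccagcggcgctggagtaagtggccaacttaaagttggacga
The windows of BBC3 and PMAIP1 held none of the 5 motifs in these letters. That of BCL2A1 held TGATGCAA, whose first base lies 63 bases before the start site, and 1 of the 5 BID windows held TTCCAGAA, 97 bases before it. Elsewhere in the family, BAK1 held GAAACTTC 226 bases before its start, BAX held TGACCCGGC 89 bases before it, and BCL2L1 held TGACTGAGC 17 bases after it. Such a match describes the letters of the window and is not evidence that a factor bound there.

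**Figure D1:**
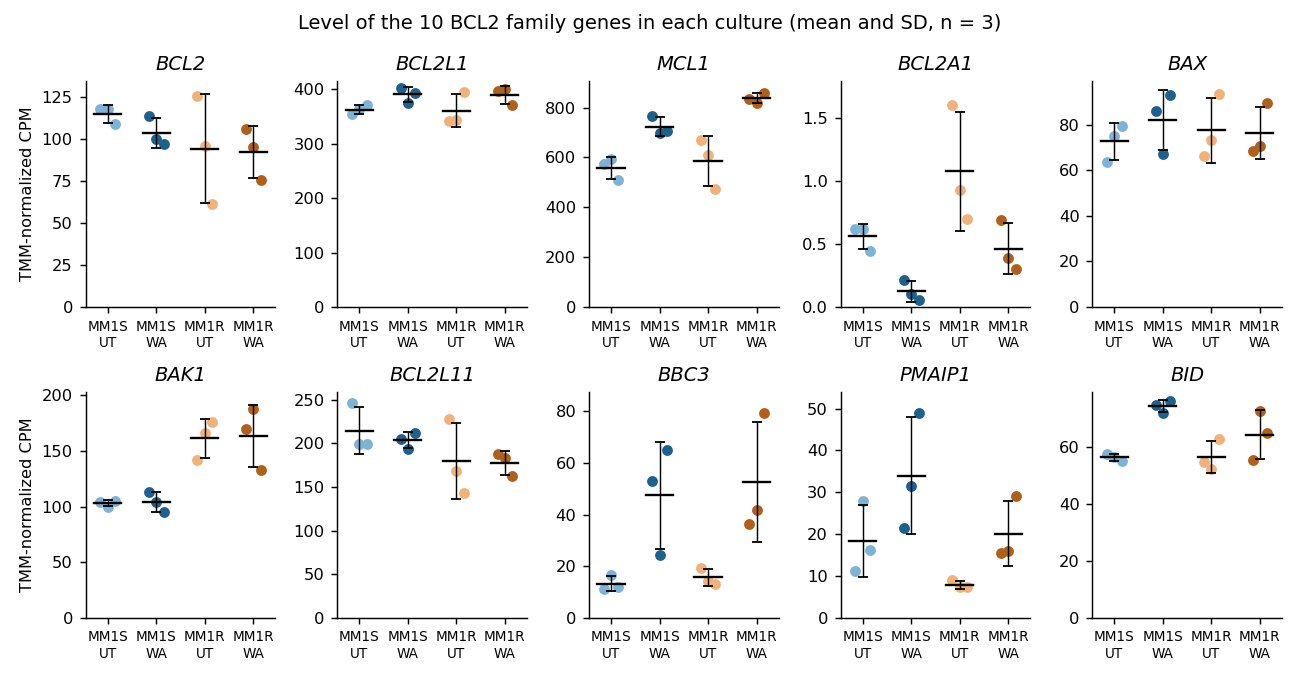
TMM-normalized CPM (vertical axis, from 0, a scale per gene) of the 10 genes in the 12 cultures, by group (horizontal axis, UT untreated); each point is 1 culture, the wide bar the mean and the error bar the SD of 3 cultures. BBC3 lay between 24.5 and 79.3 CPM in the 6 cultures with WA and between 11.1 and 19.4 CPM in the 6 without.

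To set the members against each other, CPM were divided by the length of the canonical transcript. MCL1 and BCL2L1 were the highest in untreated MM1S, at 141 CPM per kb each (SD 10.9 and 3.09, n = 3), and in untreated MM1R, at 148 and 140 (SD 25.5 and 11.6). BAX followed at 91.5 and 97.6 CPM per kb in untreated MM1S and MM1R, BAK1 at 47.4 and 74.3, BCL2L11 at 42.1 and 35.2, BID at 25.9 and 26.0, and BCL2 at 16.7 and 13.7. The BH3-only genes BBC3 (7.14 and 8.46) and PMAIP1 (9.66 and 4.14) were low, and BCL2A1 was lowest at 0.722 and 1.39. Ranges of neighbouring genes in this order overlapped for MCL1 and BCL2L1 in both untreated groups, for BAK1 and BCL2L11 and for PMAIP1 and BBC3 in MM1S, and for BCL2L11 and BID and for BCL2 and BBC3 in MM1R, so that their order is not fixed by these cultures. With WA, MCL1 stood at 183 CPM per kb in MM1S and 212 in MM1R and BCL2L1 at 151 in both, with no overlap. On average BBC3 stood above BCL2 in both lines after WA, at 25.7 CPM per kb in MM1S and 28.5 in MM1R, with ranges overlapping those of BID. In MM1S with WA the BBC3 range (13.3 to 35.2) also overlapped that of BCL2 (14.1 to 16.6), whereas in MM1R it did not. With the union of all annotated exons as length, BAX dropped below BAK1 in all 4 groups, to 28.1 against 46.5 CPM per kb in untreated MM1S, and also below BCL2L11 in untreated MM1S, at 31.8. Lengths are those of the annotation and not of the transcripts these cells make.

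**Figure D2:**
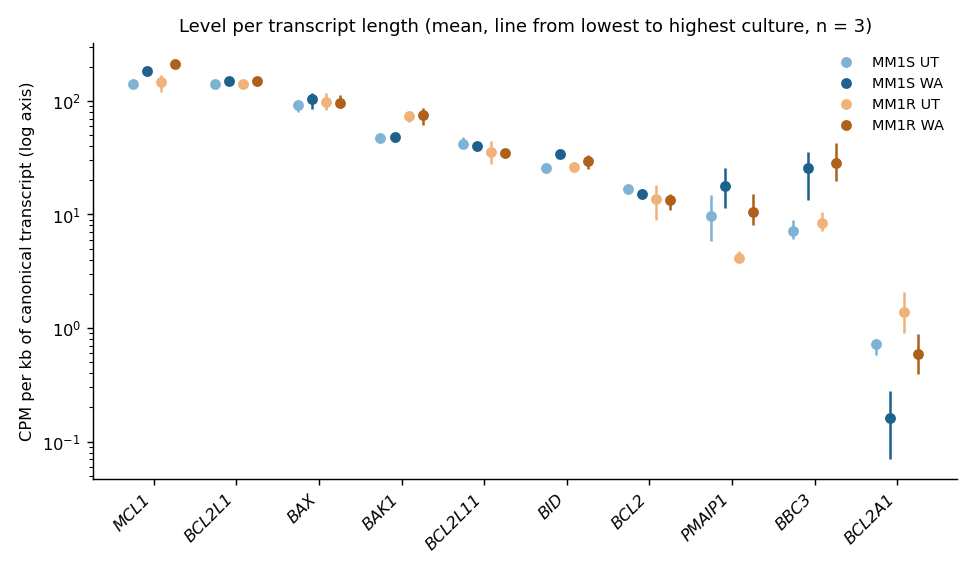
Level in CPM per kb of canonical transcript (vertical log axis) of the 10 genes, ordered by untreated MM1S (horizontal axis); points are means of 3 cultures and lines run from the lowest to the highest culture. MCL1 and BCL2L1 head the order in every group, and BCL2A1 ends it, at 0.722 CPM per kb in untreated MM1S.

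WA was compared with untreated cells to ask which genes responded within 3 h in the sensitive and the resistant line. In MM1S, 3 of the 10 members changed, against 10.5% of all genes tested. BBC3 and BID rose, a direction called for 6.25% of all genes, and BCL2A1 fell, a direction called for 4.23%. In MM1R, 3 of the 10 changed, against 14% of all genes. BBC3, MCL1 and PMAIP1 rose, against 7.55% of all genes, and no member fell, against 6.46%. The CPM of untreated and exposed cultures did not overlap for 5 members in MM1S (30.3% of all genes), BBC3, BID, BCL2A1, MCL1 and BCL2L1, and for 4 in MM1R (33.3%), BBC3, MCL1, PMAIP1 and BCL2A1. In bulk RNA, a change in the share of cells with a transcript and a change in RNA per cell cannot be told apart. The median log2 fold change of the 10 was 0.14 in MM1S and 0.07 in MM1R, beside 0.015 and 0.011 over all genes tested.

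BBC3 encodes PUMA, a BH3-only protein that binds all pro-survival members and is a known target of p53 and of stress responses. Its level was 11.1, 16.5 and 11.9 CPM in untreated MM1S of passages 16, 22 and 23 and 52.8, 24.5 and 65.0 CPM with WA. In MM1R of passages 4, 6 and 7 it was 19.4, 14.3 and 13.1 CPM without and 36.5, 41.8 and 79.3 CPM with WA. Every exposed culture was above every untreated culture of either line, and the least rise was in MM1S of passage 22. The log2 fold change was 1.85 in MM1S (adjusted p = 0.0043, SE 0.35, 3.6-fold) and 1.75 in MM1R (adjusted p = 0.0045, SE 0.34, 3.36-fold). Within pairs of the same passage the log2 change was 2.20, 0.55 and 2.40 in MM1S and 0.90, 1.51 and 2.55 in MM1R, higher in 6 of 6 pairs. BBC3 passed the test in all 12 fits with a culture left out, with log2 fold changes of 1.55 to 2.16 in MM1S and 1.35 to 1.95 in MM1R.

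PMAIP1 encodes NOXA, a BH3-only protein that binds mainly MCL1 and BFL1. In MM1R its level was 8.95, 7.30 and 7.35 CPM untreated and 15.5, 15.9 and 29.0 CPM with WA, so that the groups did not overlap. In MM1S it was 11.1, 27.8 and 16.1 CPM untreated and 21.5, 31.4 and 49.0 CPM with WA, where the untreated culture of passage 22 lay above an exposed culture. The rise of PMAIP1 in MM1R was 1.35 on the log2 scale (adjusted p = 0.023, SE 0.36). In MM1S the log2 fold change of 0.89 (SE 0.34) did not pass the test (adjusted p = 0.12). With passage number as replicate block it passed in edgeR (0.90, adjusted p = 0.016) but not in DESeq2 (0.89, adjusted p = 0.067). The level was higher with WA in 6 of 6 pairs, by 0.92, 0.17 and 1.58 on the log2 scale in MM1S and 0.76, 1.07 and 1.91 in MM1R. The call in MM1R was lost without the untreated culture of passage 6 (adjusted p = 0.089) or 7 (0.081) or the exposed culture of passage 7 (log2 fold change 1.02, adjusted p = 0.10), and that in MM1S was gained without the untreated culture of passage 22 (1.32, adjusted p = 0.043).

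MCL1 encodes the pro-survival partner of NOXA and BIM. It was read at 671, 610 and 474 CPM in untreated MM1R and at 835, 818 and 860 CPM with WA. In MM1S it was read at 573, 592 and 510 CPM untreated and 767, 697 and 705 CPM with WA, so that the groups did not overlap in either line. The rise passed the test in MM1R, with a log2 fold change of 0.52 (adjusted p = 0.015, SE 0.13, 1.43-fold). In MM1S the log2 fold change of 0.37 (SE 0.13) missed the limit (adjusted p = 0.074) and passed it with the replicate block (0.37 in edgeR, adjusted p = 0.016, and 0.36 in DESeq2, adjusted p = 0.0059) and in DESeq2 without block (adjusted p = 0.037). The level was higher with WA in 6 of 6 pairs, by 0.24 to 0.47 on the log2 scale in MM1S and 0.32 to 0.86 in MM1R. Without the untreated MM1R culture of passage 7, the lowest of its group, the log2 fold change in MM1R was 0.38 and missed the limit (adjusted p = 0.052), whereas MM1S passed it (adjusted p = 0.031).

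BID is the BH3-only protein that caspase-8 cleaves, which links death receptors to the mitochondria. Its level was 57.4, 56.5 and 55.0 CPM in untreated MM1S and 74.7, 71.9 and 76.0 CPM with WA, with a narrow spread in each group and no overlap. In MM1R it was 54.6, 52.1 and 62.8 CPM untreated and 55.3, 72.6 and 64.9 CPM with WA, and these overlapped. BID rose in MM1S by 0.40 on the log2 scale (adjusted p = 0.038, SE 0.11). In MM1R the log2 fold change was 0.19 (adjusted p = 0.31, SE 0.11), with most of it in the pair of passage 6 (0.47 on the log2 scale, against 0.02 and 0.05 in passages 4 and 7). The call in MM1S was lost without any of the 6 MM1S cultures (adjusted p of 0.057 to 0.13) or without the untreated MM1R culture of passage 6 (0.069), while the log2 fold change stayed between 0.37 and 0.42.

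BCL2A1, a pro-survival gene known as a target of NF-kB, was close to the limit of detection. It had 12, 12 and 9 reads in untreated MM1S and 4, 2 and 1 reads with WA (0.622, 0.62 and 0.447 against 0.217, 0.107 and 0.0546 CPM). In MM1R it had 31, 17 and 12 reads untreated and 13, 7 and 5 reads with WA (1.61, 0.933 and 0.70 against 0.693, 0.394 and 0.304 CPM). Untreated and exposed cultures did not overlap in either line, and the level was lower with WA in 6 of 6 pairs. BCL2A1 fell in MM1S, with a log2 fold change of -2.10 (adjusted p = 0.035, SE 0.58). With the replicate block it was -2.115 in edgeR (adjusted p = 0.0087), while DESeq2 with the block gave no adjusted p. Few exposed cultures reached 10 reads, so that BCL2A1 passed the filter on low counts mainly through untreated cultures, which favours the call of a fall. The change in MM1R was -1.20 (SE 0.45) with an adjusted p of 0.091, and -1.21 with the replicate block in edgeR (adjusted p = 0.021) and -1.23 in DESeq2 (0.21). Summed over cultures, 33 reads stood against 7 in MM1S, a ratio of 4.45 after scaling (95% exact interval 1.94 to 11.9), and 60 against 25 in MM1R, a ratio of 2.33 (1.44 to 3.88), where the intervals cover counting error only. The call in MM1S was lost without the untreated culture of passage 16, 22 or 23 (adjusted p = 0.079, 0.10 and 0.066), the exposed culture of passage 22 or 23 (0.085 and 0.13) or the untreated MM1R culture of passage 6 (0.051).

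The other 5 members passed the test in neither line. BCL2L1 had log2 fold changes of 0.11 in each line (SE 0.10 each, adjusted p = 0.55 in MM1S and 0.50 in MM1R), on levels of 342 to 402 CPM over the 12 cultures. BCL2, the founding member, had -0.15 in MM1S and -0.03 in MM1R (SE 0.20 each) on 61.3 to 126 CPM. BCL2L11 had -0.07 and -0.01 (SE 0.15) on 143 to 246 CPM. The effectors BAX (0.18 and -0.02, SE 0.16) and BAK1 (0.02 in both, SE 0.13) were read at 63.8 to 93.4 and 94.8 to 188 CPM. The 95% intervals of these 5 genes were widest for BCL2 (-0.58 to 0.28 in MM1S) and narrowest for BCL2L1 (-0.10 to 0.31 in MM1S), and each crossed 0.

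**Figure D3:**
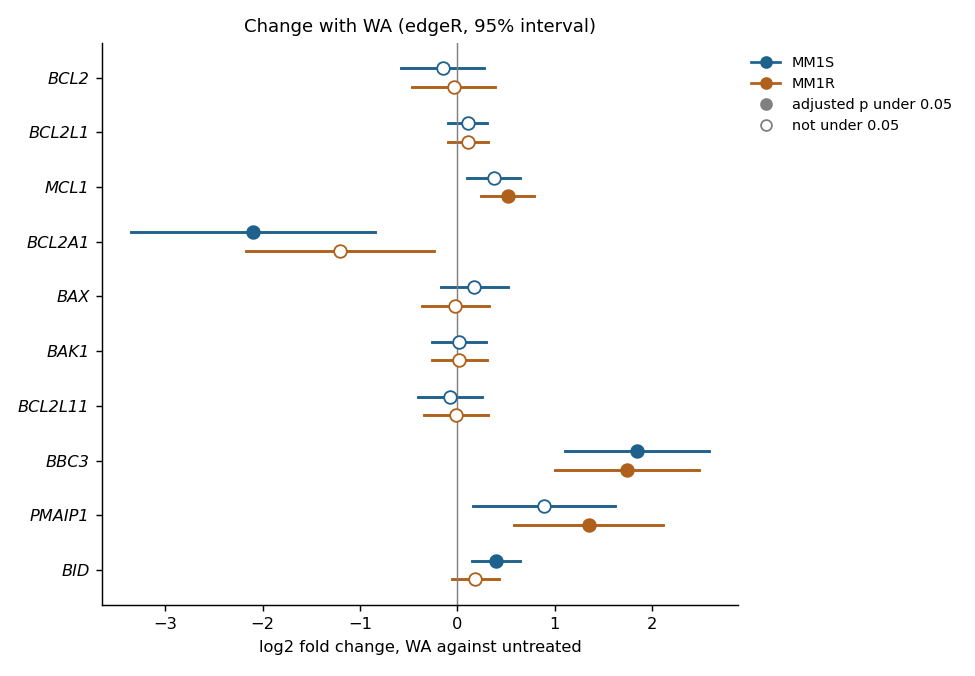
Log2 fold change of WA against untreated cultures (horizontal axis) for the 10 genes (vertical axis) in MM1S and MM1R, with 95% intervals from edgeR; filled points had an adjusted p under 0.05. BBC3 lies at 1.85 and 1.75, and the intervals of BCL2, BCL2L1, BAX, BAK1 and BCL2L11 cross 0 in both lines.

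**Figure D4:**
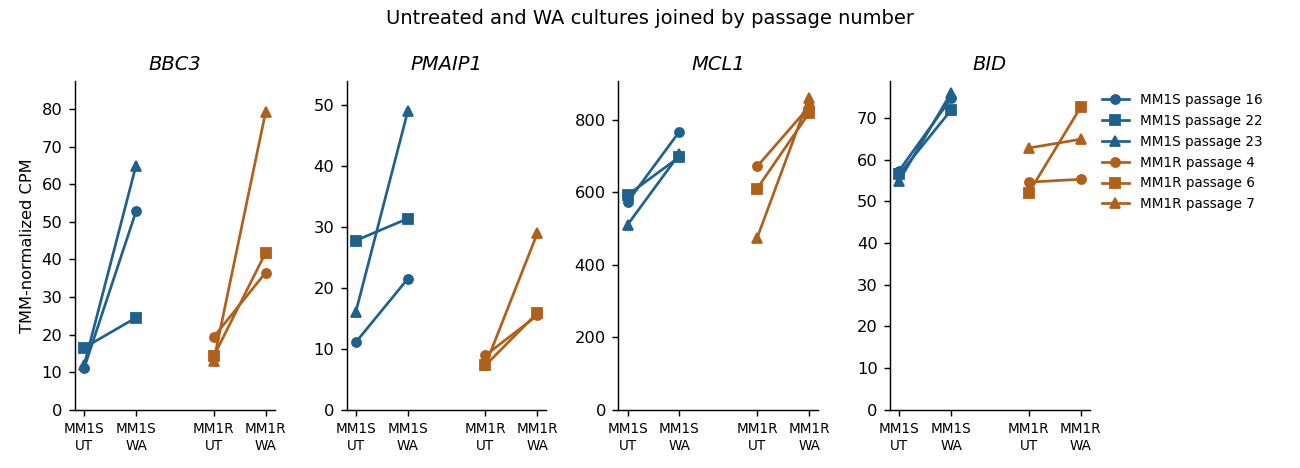
TMM-normalized CPM (vertical axis, from 0) of BBC3, PMAIP1, MCL1 and BID in untreated (UT) and WA cultures (horizontal axis); each line joins the cultures of 1 passage. All 6 lines rise for each of the 4 genes, by as little as 0.02 on the log2 scale for BID in MM1R of passage 4.

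As a description of how the rises stand to each other, MCL1 per kb was divided by BBC3 per kb in each culture. The median ratio was 20.1 in untreated MM1S (16.7 to 24.0) and 6.79 with WA (5.08 to 13.3), and 16.9 in untreated MM1R (16.1 to 19.9) and 9.15 with WA (5.07 to 10.7). The ratio of MCL1 to PMAIP1 was 15.3 and 10.7 in MM1S, with overlapping ranges, and 36.0 (31.0 to 40.2) and 24.8 (14.3 to 25.9) in MM1R. MCL1 RNA thus stayed the more abundant of each pair in every culture on this scale, with ratios above 5.

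The effect of WA was then compared between the lines as an interaction, to ask whether the resistant line responded differently. None of the 10 members passed, and of all genes tested 0 (0.0%) passed in the main fit of edgeR. At an unadjusted p under 0.05 there were 97 of 14085 genes, none of them a member, and 286 genes with the replicate block in edgeR. Evenly spread p-values would put a share of 0.05 of all genes there, which is more than either fit gave. The test was thus strict, and the lack of calls says little on whether the lines responded alike. DESeq2 without block called 1 gene, DESeq2 with the block 6 and edgeR without the filter on low counts 11, likewise no member. The smallest unadjusted p among the members was 0.21 for BID, with a difference of -0.21 (MM1R minus MM1S, 95% interval -0.56 to 0.13). For BBC3 the difference was -0.10 (-1.12 to 0.92), for MCL1 0.14 (-0.23 to 0.52), for PMAIP1 0.46 (-0.59 to 1.51) and for BCL2A1 0.89 (-0.69 to 2.48). The changes of MCL1, PMAIP1, BID and BCL2A1 that passed in only 1 line are therefore not shown to differ between lines, and the intervals do not show that they were alike.

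MM1R was compared with MM1S without treatment to ask what differs in the resistant line before exposure. In these cultures 2 of the 10 members differed, against 11.9% of all genes. BAK1, the effector that resides in the outer mitochondrial membrane, was higher in MM1R, as were 6.44% of all genes, and PMAIP1 was lower, as were 5.5%. With WA, 1 of the 10 differed, against 12% of all genes. It was again BAK1, higher in MM1R, a direction called for 6.34% of all genes against 5.66% lower. The CPM of the lines did not overlap for 3 members untreated (32.3% of all genes), BAK1, PMAIP1 and BCL2A1, and for 4 with WA (29.1%), BAK1, BCL2A1, MCL1 and BCL2L11. These comparisons share cultures with those of WA, so that a high or low untreated culture enters both.

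BAK1 was read at 104, 100 and 105 CPM in untreated MM1S and 142, 166 and 176 CPM in untreated MM1R. With WA it was read at 113, 104 and 94.8 CPM in MM1S and 170, 188 and 133 CPM in MM1R. All 6 MM1R cultures lay above all 6 MM1S cultures. The log2 fold change was 0.65 both untreated (adjusted p = 0.0057, SE 0.13, 1.57-fold) and with WA (adjusted p = 0.0056, SE 0.13, 1.57-fold). It passed in all 12 fits with a culture left out, at 0.58 to 0.73 untreated and 0.56 to 0.81 with WA.

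PMAIP1 was lower in untreated MM1R than in untreated MM1S, with a log2 fold change of -1.22 (adjusted p = 0.041, SE 0.36, 2.33-fold) and no overlap. With WA it was -0.76 (adjusted p = 0.16, SE 0.34). The untreated difference rested on few cultures, since it was -0.79 without the MM1S culture of passage 22, which had the highest untreated level (adjusted p = 0.21). It also missed the limit without the untreated MM1S culture of passage 23 (adjusted p = 0.074), without the untreated MM1R culture of passage 4 (0.064), 6 (0.12) or 7 (0.12), or without the exposed MM1R culture of passage 6 (0.052). Without the exposed MM1S culture of passage 16, the difference with WA passed for PMAIP1 (-1.01, adjusted p = 0.046) and for BCL2A1 (2.43, adjusted p = 0.034).

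BCL2A1 CPM did not overlap between the lines in either condition, although untreated reads met at 12, with a log2 fold change of 0.94 untreated (adjusted p = 0.19, SE 0.43) and 1.84 with WA (adjusted p = 0.064, SE 0.60), neither past the limit. Of the pro-survival genes, BCL2 had -0.29 untreated and -0.17 with WA (SE 0.20), MCL1 0.07 and 0.21 (SE 0.13) and BCL2L1 -0.009 and -0.004 (SE 0.10). BAX had 0.09 and -0.11 (SE 0.16). Of the BH3-only genes, BCL2L11 had -0.26 and -0.20 (SE 0.15), BBC3 0.25 and 0.15 (SE 0.35 and 0.33) and BID 0.01 and -0.21 (SE 0.11). BCL2L11, which glucocorticoids are known to raise in lymphoid cells, passed when the untreated MM1R culture of passage 4 was left out (-0.47, adjusted p = 0.038), and that culture was the highest of its group at 228 CPM beside 168 and 143.

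**Figure D5:**
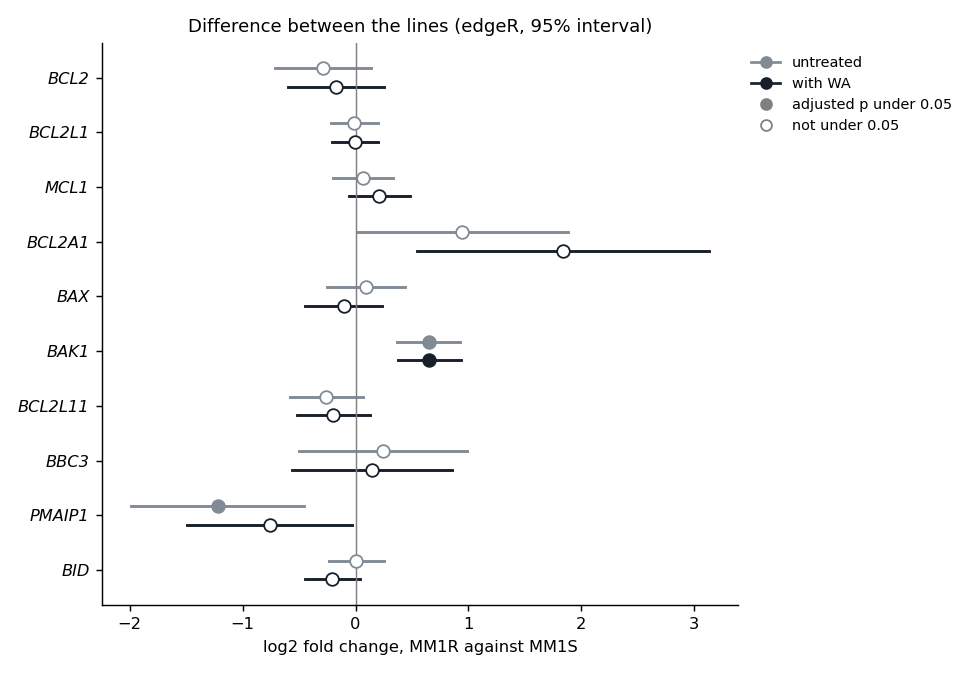
Log2 fold change of MM1R against MM1S (horizontal axis) for the 10 genes (vertical axis), untreated and with WA, with 95% intervals from edgeR; filled points had an adjusted p under 0.05. BAK1 lies at 0.65 in both conditions, and PMAIP1 at -1.22 untreated and -0.76 with WA.

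Genes whose pattern over the 12 cultures was nearest to that of a member were taken by the root mean square difference of centred log2(CPM + 0.5). The search covered 12313 genes with a mean of at least 1 CPM. For BBC3, whose own root mean square deviation was 0.947, they were RGS2 (0.223), YPEL2 (0.244) and KLHL25 (0.255). For PMAIP1 (0.818) they were PSAT1 (0.252), TSPYL2 (0.321) and TREML2 (0.332). BCL2A1 (0.519) lay nearest to TXNIP (0.159), GLCCI1 (0.164) and LINC00173 (0.191). Its mean was 0.559 CPM, so that the added 0.5 shrank its pattern and these nearest genes are uncertain. MCL1 (0.268) lay nearest to PPP3CC (0.0829), S100PBP (0.083) and RNF146 (0.0838). BAK1 (0.347) lay nearest to FUNDC1 (0.0905), PTPN3 (0.0918) and ATF5 (0.102), and BID (0.191) to TOX4 (0.0752), TRAF2 (0.0918) and EFL1 (0.0929). The measure describes likeness of level over these libraries only.

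Of the other genes of the BCL2 family, 9 of 13 were tested. BCL2L2, which encodes the pro-survival protein BCL-W, was higher in MM1R, with 3 to 5 reads in untreated MM1S and 45 to 61 in untreated MM1R. The summed reads were 155 against 12, a ratio of 13.9 (95% exact interval 7.74 to 27.5, counting error only), and the log2 fold change was 3.75 untreated (adjusted p = 4.7e-06, SE 0.31) and 3.42 with WA (adjusted p = 9.4e-06, SE 0.30). The read-through gene BCL2L2-PABPN1 shares its exons and had 0 reads in every culture, so that the level of BCL2L2 depends on how shared reads were counted and is uncertain. HRK, a BH3-only gene, was lower in untreated MM1R, with 54 against 11 summed reads and a log2 fold change of -2.15 (adjusted p = 0.018, SE 0.53), and this call was lost without the untreated culture of passage 16 or 22 (MM1S) or of passage 4 or 6 (MM1R), with adjusted p up to 0.0742. HRK had 13 to 24 reads in untreated MM1S and 3 to 5 in untreated MM1R. HRK thus passed the filter on low counts through MM1S cultures and BCL2L2 through MM1R cultures, which favours both calls. BCL2L15 rose with WA by 2.54 in MM1S (adjusted p = 0.043, SE 0.74) and 2.48 in MM1R (adjusted p = 0.027, SE 0.69) on 2 to 49 reads, and was called in 5 and 9 of the 12 fits with a culture left out (adjusted p up to 0.15 and 0.133). It had 2 to 6 reads in untreated MM1S and 2 to 8 in untreated MM1R. It thus passed the filter on low counts through exposed cultures, which favours the call of a rise. In MM1S untreated and exposed cultures overlapped, with 0.267 CPM in exposed passage 22 below 0.311 in untreated passage 16. Of the 9 genes, 2 passed between untreated lines (11.9% of all genes tested) and 1 between lines with WA (12%). For the effect of WA, 1 passed in MM1S (10.5% of all genes) and 1 in MM1R (14%).

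Downstream of the mitochondria, all 20 genes of the caspases, the apoptosome and the inhibitors of apoptosis were tested. CASP9, the initiator caspase of the apoptosome, went from 11.0 CPM ± 1.49 to 23.0 ± 3.73 in MM1S (SD, n = 3) and from 11.7 ± 1.04 to 22.4 ± 1.3 in MM1R, with log2 fold changes of 1.07 (adjusted p = 0.00054, SE 0.15) and 0.94 (adjusted p = 0.0012, SE 0.15). It passed in all 12 fits with a culture left out in both lines, and in 6 of 6 pairs the exposed culture was higher. HTRA2, a mitochondrial protease, fell in MM1R by 0.40 on the log2 scale (adjusted p = 0.038), and DFFA, the inhibitor of the caspase-activated nuclease, was higher in untreated MM1R by 0.43 (adjusted p = 0.038). These calls were made in 5 and 6 of the 12 fits with a culture left out (adjusted p up to 0.16 and 0.176).

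Of the death receptor branch, which reaches the mitochondria through BID, 10 of 12 genes were tested, and 4 rose in MM1S and 2 in MM1R with WA. Of all genes tested, 6.25% rose in MM1S and 7.55% in MM1R. TNFRSF10D, a decoy receptor for TRAIL, rose from 5.51 CPM ± 1.34 to 29.3 ± 14.4 in MM1S (2.41, adjusted p = 0.0012, SE 0.38) and from 3.05 ± 0.812 to 9.73 ± 4.6 in MM1R (1.67, adjusted p = 0.014, SE 0.40), and with WA it was lower in MM1R (-1.60, adjusted p = 0.012, SE 0.37). The call in MM1R was lost without the untreated culture of passage 6 or the exposed culture of passage 7 (adjusted p up to 0.0673), and that between lines without the exposed MM1R culture of passage 4 or 6 (up to 0.061). TNFRSF10B, a TRAIL receptor that signals death, rose in MM1S (0.87, adjusted p = 0.0019, SE 0.14), and its level before treatment was higher in MM1R (79.3 CPM ± 8.38 against 38.9 ± 2.3, log2 fold change 1.03, adjusted p = 0.0005). FAS rose in MM1S (0.98, adjusted p = 0.011), which was lost without the untreated culture of passage 22 (0.0546). TNFRSF1A rose in MM1S (0.46, adjusted p = 0.016, lost without the untreated culture of passage 16 or 22 or the exposed culture of passage 23, adjusted p up to 0.0687) and in MM1R (0.53, adjusted p = 0.0052, called in all 12 fits with a culture left out).

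The 19 transcription factors known to act on genes of the family were all tested. With WA, 0 rose and 2 fell in MM1S, and 3 rose and 4 fell in MM1R. Of all genes tested, 6.25% rose and 4.23% fell in MM1S, and 7.55% rose and 6.46% fell in MM1R. NFKB1, a subunit of NF-kB, fell from 116 CPM ± 1.69 to 73.8 ± 4.19 in MM1S (-0.65, adjusted p = 0.0023, SE 0.11) and from 100 ± 9.54 to 58.9 ± 7.39 in MM1R (-0.77, adjusted p = 0.00068, SE 0.11). IRF4, on which myeloma cells depend, fell by 0.73 in MM1S (adjusted p = 0.019, lost without the untreated culture of passage 22 or 23 or the exposed culture of passage 16, adjusted p up to 0.0871) and by 0.96 in MM1R (adjusted p = 0.0032, called in all 12).

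Of the same list, DDIT3, ATF3 and JUN rose in MM1R, by log2 fold changes of 3.06 (adjusted p = 0.013, SE 0.72), 2.10 (adjusted p = 0.022, SE 0.55) and 2.43 (adjusted p = 0.0081, SE 0.53). Their size rested on passage 7, with within-pair changes of 1.52, 1.35 and 4.36 for DDIT3 and 1.15, 1.24 and 3.15 for ATF3 in passages 4, 6 and 7, and without the exposed culture of passage 7 the log2 fold changes were 1.61, 1.32 and 1.57, the lowest of the 12 fits with a culture left out, at adjusted p of 0.075, 0.12 and 0.039. DDIT3 and ATF3 also missed the limit without the untreated culture of passage 6 or 7. The same exposed culture had the highest BBC3 (79.3 CPM) and PMAIP1 (29.0 CPM) of its group. E2F1 fell by 0.42 (adjusted p = 0.027, lost without the untreated culture of passage 6 or 7 or the exposed culture of passage 4 or 7, adjusted p up to 0.113). RELA was the seventh to pass (-0.36, adjusted p = 0.044), close to the limit, and its fits with a culture left out are not given here. In MM1S, DDIT3 (2.24, adjusted p = 0.057), ATF3 (1.74, adjusted p = 0.057) and JUN (1.42, adjusted p = 0.092) missed the limit, the first pair without overlap between untreated and exposed cultures. ATF4 (0.66, adjusted p = 0.054), HSF1 (-0.17, adjusted p = 0.65) and XBP1 (-0.24, adjusted p = 0.28) did not pass in MM1R. Between untreated lines 0 of the 19 were higher and 2 lower in MM1R, namely NR3C1, the glucocorticoid receptor (-2.96, adjusted p = 2.1e-06, SE 0.22), and REL (-1.63, adjusted p = 0.0049, SE 0.32). Of all genes tested, 6.44% were called higher and 5.5% lower in untreated MM1R. With WA, NR3C1 (-2.87), REL (-1.33, lost without the exposed MM1R culture of passage 6, adjusted p = 0.0719) and HIF1A (-0.54, called in 6 of 12 such fits, adjusted p up to 0.182) were lower.

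Of the genes that control the turnover of MCL1 and other family proteins, 8 symbols were listed, of which MARCHF5 was found under its older symbol MARCH5, also listed, so that 7 were in the table. Of these 6 were tested and none passed with WA in either line, against 10.5% of all genes tested in MM1S and 14% in MM1R. HUWE1, a ubiquitin ligase of MCL1, was lower in untreated MM1R (-0.45, adjusted p = 0.049, called in 4 of 12 fits with a culture left out and up to 0.174 in the rest), and USP9X, a deubiquitinase of MCL1, was higher in MM1R with WA (0.53, adjusted p = 0.014), which was lost without the exposed MM1R culture of passage 6 (0.0644). Of 12 partners at the outer mitochondrial membrane, all tested, ITPR3, a calcium channel of the endoplasmic reticulum, was lower in MM1R untreated (-0.42, adjusted p = 0.039) and with WA (-0.49, adjusted p = 0.018), called in 6 and 7 of 12 such fits (adjusted p up to 0.144 and 0.0913). ITPR2 rose with WA in MM1R (0.42, adjusted p = 0.049, called in 3 of 12 and up to 0.171 in the rest), and VDAC1, VDAC2 and VDAC3 passed in no comparison.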

How the data were processed

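RNA of 12 cultures (3 per group) was sequenced by the authors as 2 × 50 bp paired-end reads. Their notes name FastQC 0.11.5, STAR 2.7.3a and hg19. The annotation and strand setting are not given in the sources used here. The deposited values used are raw read counts per gene, which the authors had not normalized. A further deposited table of normalized values was not used here. The members and gene lists were chosen with earlier results of these data known.

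R 4.3.3 was used with edgeR 4.0.16 for the main test and DESeq2 1.42.0 as an alternative. Genes were kept by filterByExpr (minimum count 10), libraries scaled by TMM, and all 12 libraries fitted together with 4 group means, as the quasi-likelihood test of edgeR with Benjamini-Hochberg adjustment at 0.05. Chi-square tests of replicate pairs gave 8.163 to 46.52 per degree of freedom, so that replicates differed beyond sampling noise and each counted as 1 sample. The script was tested on simulated data. Within-pair changes and likeness of pattern are on the scale of log2(CPM + 0.5). Intervals for summed reads are exact (95%) and cover counting error only. The genes named are the 10 members and, of each list, at most 6 called genes per comparison in order of adjusted p. RELA was named in addition, after its values were seen. Also named outside this rule were cell type markers, the genes nearest in pattern and some list genes that were not called. The last were ATF4, HSF1 and XBP1 in MM1R, DDIT3, ATF3 and JUN in MM1S, and VDAC1, VDAC2 and VDAC3.

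Untreated and WA cultures share passage numbers, from the labels. Deviations from the group mean correlated between cultures of the same passage, with r of 0.78, 0.281 and 0.535 (passages 16, 22 and 23) and 0.462, 0.272 and 0.277 (passages 4, 6 and 7). Passage 22 untreated was closer to passage 23 exposed (0.381). Within-pair changes are therefore given by passage, but the main fit held no passage term, so that its p-values ignore the pairing. With passage as replicate block, edgeR called 3399 genes for WA in MM1S and 4094 in MM1R. The main fit called 1476 and 1973. Alternatives were DESeq2 size factors, no filter, at least 10 reads in every library, DESeq2, the compared libraries only, passage as replicate block in both tools, an adjusted p of 0.01, and leaving out each library. The protein motif of the BH3 domain was not searched here. Some results of the gene lists are not reported here.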

Additional observations from a re-analysis of the deposited data

How the results depend on the processing

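The 9 differences of members that passed kept their direction in 171 repeats under other settings, passed the limit in 142 of these and missed it in 29, and 41 further differences that did not pass were repeated 771 times, of which 12 passed. The changed calls of single members stand beside their values in the report.

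Of members between untreated lines, 2 passed, 1 at an adjusted p of 0.01 (BAK1) and 0 with a log2 fold change of 1 in addition. Leaving out a culture gave 1 to 2. With WA in MM1S 3 passed, 1 at an adjusted p of 0.01 (BBC3), and 5 with the replicate block in edgeR, where MCL1 and PMAIP1 joined. The block in DESeq2 gave 3, but another set: BBC3, BID and MCL1, with no adjusted p for BCL2A1. Leaving out a culture gave 1 to 4. With WA in MM1R 3 passed, 1 at an adjusted p of 0.01 (BBC3), and 4 with the replicate block in edgeR, where BCL2A1 joined. Leaving out a culture gave 1 to 3. Between lines with WA 1 passed, 2 without a filter on low counts (PMAIP1 joined), and 0 under a limit of 0.01 joined to one on the fold change (log2 of 1). Leaving out a culture gave 1 to 3. The difference between lines in the effect of WA gave 0 under every setting run. Without the filter, BID in MM1S missed the limit (adjusted p = 0.11) and PMAIP1 passed (2e-05). The causes were not tested. No paired fit was possible between the lines, which share no passage number.

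Over all genes, the number called ranged from 821 to 2107 untreated between lines, 726 to 1621 for WA in MM1S, 950 to 2396 for WA in MM1R and 811 to 2948 between lines with WA when a culture was left out. Under the other settings it ranged from 680 to 2239, 556 to 3399, 812 to 4094 and 696 to 2378, and from 0 to 11 for the difference in effect. Of 37 calls of list genes, at most 6 per list and comparison and so without RELA, 17 passed whichever culture was left out and 20 did not. BCL2A1, with 1 to 31 reads per culture, is the member most limited by depth.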
